A study of Mus musculus with 24 samples.

Results

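Fast signalling between neurons runs through receptors for glutamate and GABA, and the genes described here are their subunits in whole brain of mice on 4 selenium diets. The members were all genes of the deposited table whose symbols begin with Gria, Grik, Grin1 to Grin3, Grm, Gabra, Gabrb, Gabrg, Gabrd or Gabbr and whose mean over the 12 brain libraries was 5 or more. The rule took 39 of 21894 genes, which was every symbol that matched it, and Grin3b stood nearest the limit with a mean of 9.24 normalized reads. Of these, 38 are protein-coding receptor genes, and Grin1os is a non-coding RNA antisense to Grin1 that entered by its name. The mice were males of the inbred strain C57BL/6J, aged 8 weeks when the diets began and fed them for 5 weeks. A diet had no added selenium (0 ppm) or was supplemented to 0.1 ppm, to 0.4 ppm or to 2.25 ppm. Selenium is a trace element needed to make selenoproteins. Each diet had 3 brain libraries, called a, b and c in the order of their columns, and the labels name no engineered allele or other treatment. Liver libraries of the same diets, 12 in all, enter only where stated.

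Glutamate is the main excitatory transmitter of the brain and GABA the main inhibitory one. AMPA, kainate and NMDA receptors are cation channels opened by glutamate and are assembled from subunits of the Gria, Grik and Grin genes. GABA-A receptors are chloride channels, most of which join α, β and γ or δ subunits. The metabotropic glutamate receptors (Grm) and the GABA-B receptor (Gabbr1 with Gabbr2) act through G proteins. Subunit choice differs between brain regions, and the α6 subunit of the GABA-A receptor (Gabra6) is known as a mark of cerebellar granule neurons.

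Reads on genes numbered 12.9 to 17.8 M in a brain library, and 3 reads corresponded to 1.75 to 2.34 normalized reads, a limit for counting error only. Within a diet, brain libraries differed beyond sampling noise (chi-square per gene of 4.01 or more), so each was counted as a replicate. Nothing in the labels says which libraries came from separate animals, so p-values rest on a spread between libraries that may be technical. Markers common to neurons summed to 49730 to 59328 normalized reads across the brain libraries. Summed pituitary markers reached 89168 in 0 ppm a and 52972 in 0.1 ppm b, so these libraries stand apart, and 0 ppm c held the highest sum of cerebellar granule markers.

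Levels between genes are given as normalized reads per kb of exon, with exon lengths from GENCODE M21 on mouse build mm10. Added over their genes, the 13 GABA-A subunits held a mean of 3321 normalized reads per kb, 36.8% of the total over the 6 receptor classes. The 4 AMPA subunits held 1882, the GABA-B pair 1436, the 7 NMDA subunits 919, the 7 metabotropic glutamate receptors 878 and the 5 kainate subunits 601. These sums ranged over the 12 libraries from 2996 to 3583 for GABA-A and from 1699 to 2081 for AMPA, so the order of these classes was the same in every library. NMDA sums ran from 798 to 1071 and metabotropic sums from 765 to 1027, and those ranges overlapped.

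The highest gene per length was Gabbr1 for GABA-B (979 normalized reads per kb), Gria1 for AMPA (780), Grin1 for NMDA (350), Grik5 for kainate (342) and Grm5 for the metabotropic receptors (201). Gabbr1 encodes the GABA-binding subunit of the GABA-B receptor, and Gabbr2 (458) the subunit that couples it to G proteins. Grin1 encodes the subunit that every NMDA receptor needs, and its partners Grin2c (237), Grin2b (166), Grin2a (73.9) and Grin2d (42.4) set the kinetics of the channel. Grin3b, a subunit that lowers calcium flow, was lowest of the 39 at 2.80 normalized reads per kb. Among the kainate subunits, Grik5 stood above Grik3 (124), Grik2 (52.6), Grik4 (48.6) and Grik1 (34.3). Grm8, a presynaptic receptor that inhibits release, was lowest of its class at 16.7 per kb.

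The other AMPA subunits stood at 519 normalized reads per kb for Gria2, whose RNA is edited, 333 for Gria4 and 250 for Gria3. The GABA-A subunits Gabra6 (388), Gabra3 (304), Gabrb2 (289) and Gabrd (248) stood above Gabra5 (175), Gabra4 (169), Gabrb1 (132), Gabra2 (78.0), Gabrg1 (54.9) and Gabrg3 (28.3), so the α family spanned a wide range of levels per length. The metabotropic receptors below Grm5 included Grm4 (189), Grm3 (127), Grm7 (108) and Grm2 (82.4). Grin3a, the sister subunit of Grin3b, stood at 46.6 per kb and the antisense Grin1os at 50.8.

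**Figure D1:**
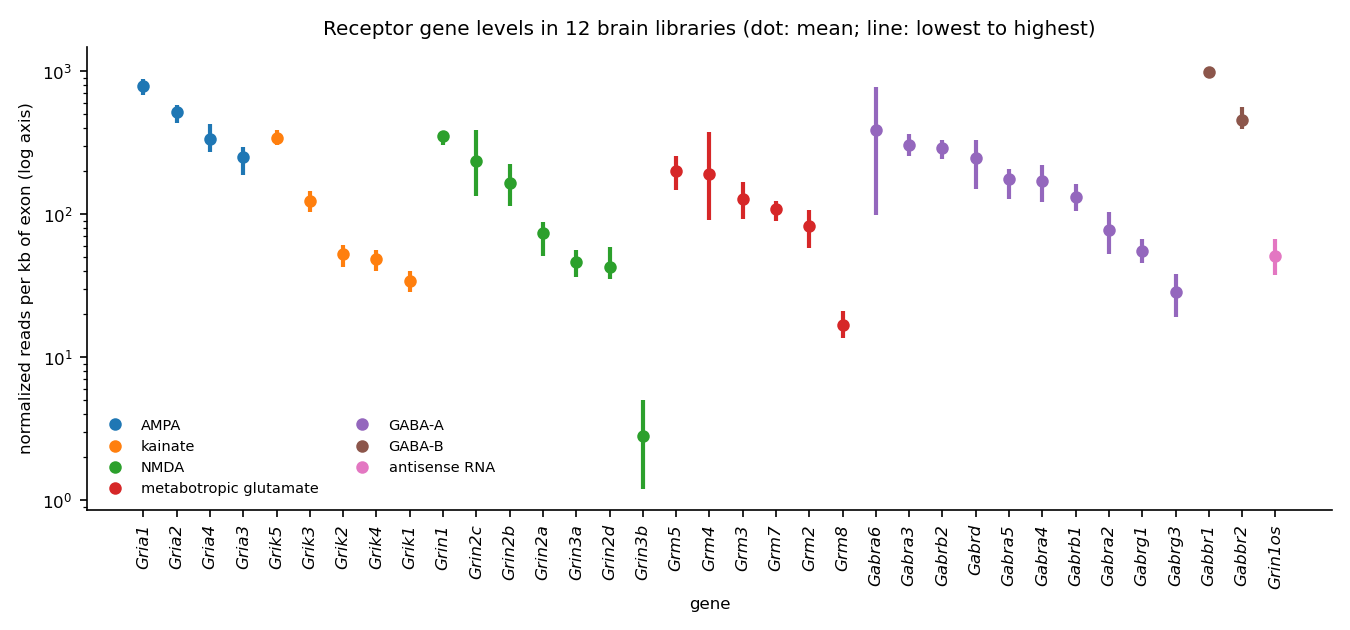
Mean normalized reads per kb of exon (log axis) for 35 receptor genes in 12 brain libraries, grouped by receptor class, with a line from the lowest to the highest library. Gabra6, Grm4 and Grin2c have the longest lines among the genes above 100 reads per kb, and Grin3b lies below all others.

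The members differed in how much they varied between libraries. Gabbr1 varied least, from 6944 to 8151 normalized reads, a 1.17-fold range. Gabra6 varied most, from 246 to 1919 normalized reads, a 7.80-fold range. Next came Grin3b at 4.15-fold, on values of 3.97 to 16.5 normalized reads, then Grm4 at 4.08-fold, Grin2c at 2.89-fold and Gabrd at 2.19-fold. The median standard deviation over the 12 libraries was 0.20 on the log2 scale for the members, 0.21 for all 21127 genes tested and 0.11 for the 10703 genes with a mean of 100 or more. The median share of that variance lying between diets was 24.9% in the members and 28.9% in all genes tested. With 4 diets of 3 libraries, a sizeable share arises without any effect of diet, so these values do not measure one.

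Several of the variable members followed markers of the cerebellar granule neuron, a cell type of the cerebellar cortex, whereas Grin3b did not (r = 0.14). Gabra6 stood at 631, 1004 and 1919 normalized reads at 0 ppm and at 1320, 246 and 1501 at 0.1 ppm. At 0.4 ppm it stood at 927, 1459 and 426, and at 2.25 ppm at 388, 391 and 1381. Every diet thus held both low and high libraries, and all 4 diets overlapped. The sum of 8 granule markers (Cbln1, Cbln3, Neurod1, Zic1, Zic2, Etv1, Fat2 and Calb2) ran from 4592 normalized reads in 0.1 ppm b, which had the lowest Gabra6, to 18674 in 0 ppm c, which had the highest.

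Grm4, a presynaptic receptor of granule neuron axons, ran from 546 in 0.1 ppm b to 2226 in 0 ppm c. Grin2c, the NMDA subunit typical of mature granule neurons, ran from 675 to 1954 between the same libraries. Gria4 ran from 1722 in 2.25 ppm b to 2706 in 0 ppm c. Gabrd, the δ subunit of GABA-A receptors outside synapses, ran from 432 in 2.25 ppm a to 949 in 0.1 ppm c. Across the 12 libraries these genes, with Gabra6, ranked much as the granule markers did.

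As a description over n = 12 libraries, Pearson's r of log2 values with the log2 marker sum was 0.98 for Grm4, 0.98 for Grin2c, 0.97 for Gabra6, 0.96 for Gria4 and 0.85 for Gabrd. Spearman's rho was 0.92 to 0.99 for these genes. Without the 2 libraries farthest from the median marker sum, r was 0.81 to 0.97, and within diets it was 0.82 to 0.98. The same 5 genes had an r of 0.90 to 0.94 with 5 summed Purkinje cell markers, where Gabrd was nearer to them (0.94) than to the granule markers, and of 0.68 to 0.91 with summed astrocyte markers, which ran from 12483 to 15381 normalized reads. Summed Purkinje and astrocyte markers had an r of 0.94 and 0.92 with the granule sum, so the cell types cannot be told apart by these libraries. The points of such a correlation share a library and its scaling factor. Of the 39 members, 6 (15.4%) had an r above 0.8, against 2.39% of the 21023 genes tested that are in no marker list. Here and in the shares below, the genes outside the lists were not matched to the members for level. Many of them have few reads, where counting noise lowers r. In bulk tissue, fewer cells of a type and less RNA per cell cannot be told apart.

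**Figure D2:**
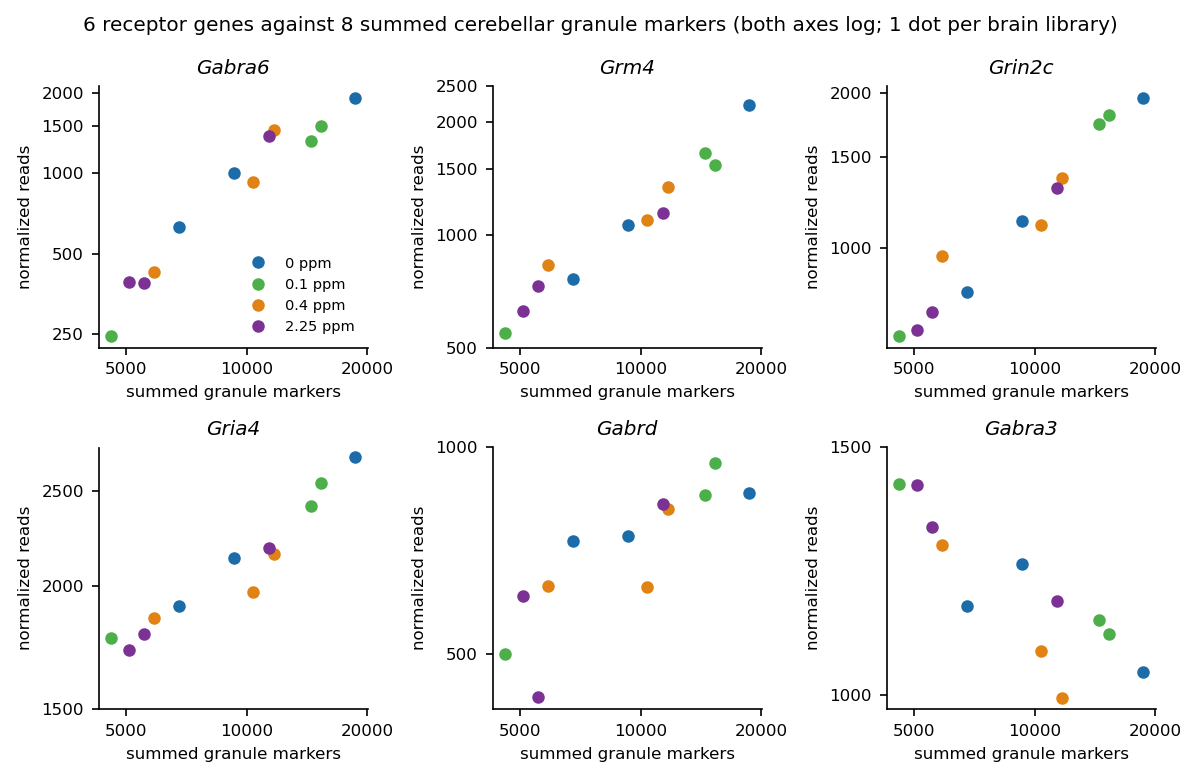
Normalized reads of 6 receptor genes against the summed reads of 8 cerebellar granule markers, both on log axes, with 1 dot for each of the 12 brain libraries coloured by diet. The dots rise together in the panels of Gabra6, Grm4, Grin2c, Gria4 and Gabrd and fall in that of Gabra3, and the colours mix along the line.

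Promoter sequences were in the RefSeq table (GRCm38.p6) for 26 of the 39 members, and for 3 of the 6 genes that followed the granule markers. These 3 are shown because they moved together, with Gabra2 as a member that moved the other way (r = -0.79). Each runs 5′ to 3′ over the 250 bases before the start of the gene, on the minus strand: Gabra6 at chr11:42321073-42321322, Gria4 at chr9:4796235-4796484, Grin2c at chr11:115267244-115267493 and Gabra2 at chr5:71095850-71096099. Capitals mark TTGGC or its reverse GCCAA, the half-site of nuclear factor I, and GGGCGG or its reverse CCGCCC, the GC box.
Gabra6: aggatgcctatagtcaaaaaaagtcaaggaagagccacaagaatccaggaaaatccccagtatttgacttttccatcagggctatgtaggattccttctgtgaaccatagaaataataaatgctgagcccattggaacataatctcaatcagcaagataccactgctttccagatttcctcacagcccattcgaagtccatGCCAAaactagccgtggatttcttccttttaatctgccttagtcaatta
Gria4: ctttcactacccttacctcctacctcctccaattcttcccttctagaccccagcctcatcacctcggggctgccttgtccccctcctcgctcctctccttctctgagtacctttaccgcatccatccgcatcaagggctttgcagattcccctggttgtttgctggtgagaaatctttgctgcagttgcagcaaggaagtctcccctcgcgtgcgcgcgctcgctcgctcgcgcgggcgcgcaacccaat
Grin2c: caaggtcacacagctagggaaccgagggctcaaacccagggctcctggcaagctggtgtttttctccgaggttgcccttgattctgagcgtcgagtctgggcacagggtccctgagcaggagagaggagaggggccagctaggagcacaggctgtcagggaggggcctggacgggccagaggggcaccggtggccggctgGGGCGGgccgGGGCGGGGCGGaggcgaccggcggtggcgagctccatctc
Gabra2: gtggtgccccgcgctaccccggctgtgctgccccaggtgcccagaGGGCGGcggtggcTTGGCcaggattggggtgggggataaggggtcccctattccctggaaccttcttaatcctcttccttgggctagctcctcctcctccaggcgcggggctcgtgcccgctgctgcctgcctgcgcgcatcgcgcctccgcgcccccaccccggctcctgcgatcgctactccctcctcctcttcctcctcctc
The Gabra6 window held 1 TTGGC half-site, which begins 49 bases before the start, and no GC box. The Grin2c window held 3 GC boxes, which overlap in part, and no TTGGC. Gria4 held neither motif, and Gabra2 held 1 of each. On either strand, TTGGC occurred in 10 of the 26 members (38.5%) and in 41.9% of the 27025 promoters of the same length. GGGCGG occurred in 14 of the 26 members (53.8%) and in 32.9% of those promoters. Each motif was counted on its own, so a base can belong to both. The median GC content was 62.2% in the members and 52% in all promoters, and Gabra6 stood at 40.8%. A match is a description of letters and not of a bound site.

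Another 10 members ran against the granule markers, with r below -0.6, among them Gabra3, Gabrb1, Gabra2, Gabrg3, Grm5, Grm7, Gabra5, Grin2b and Grin3a. The 10 are 25.6% of the members, against 7.51% of the genes outside the marker lists, and 4 of the 10 stayed below -0.6 without the 2 libraries farthest from the median marker sum (Gabra3, Gabra5, Gabrb1 and Gabra2). Gabra3, the α3 subunit, had the most negative r (-0.86, and -0.91 within diets). Grin2b, the NMDA subunit that prevails in the forebrain, ran from 2833 in 0 ppm c, the library richest in granule markers, to 5589 in 2.25 ppm b. Grm5, which couples to calcium release, stood at 2257, 2382 and 1504 at 0 ppm, 1819, 2630 and 1729 at 0.1 ppm, 1635, 1804 and 2035 at 0.4 ppm and 1933, 2567 and 2405 at 2.25 ppm.

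Markers of excitatory neurons of cortex and hippocampus had an r above 0.7 with 11 members (28.2%), against 3.63% of the genes outside the lists. Among these were Gria3, Grin2b, Gria2, Gabbr2, Grin2a, Grin1, Gabra4, Gabrb2, Gria1 and Grm7. Gria3, an AMPA subunit encoded on chromosome X, had the highest (0.91). Without the 2 libraries farthest from the median of these markers, Gria3 alone of the 11 kept an r above 0.7 (0.84), and the lowest was Grm7 (0.35), so the count rests on those libraries. Close pairs among members were Grin2c with Grm4 (r = 0.98), Gria4 with Grin2c (0.97) and Gria4 with Grm4 (0.96).

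**Figure D3:**
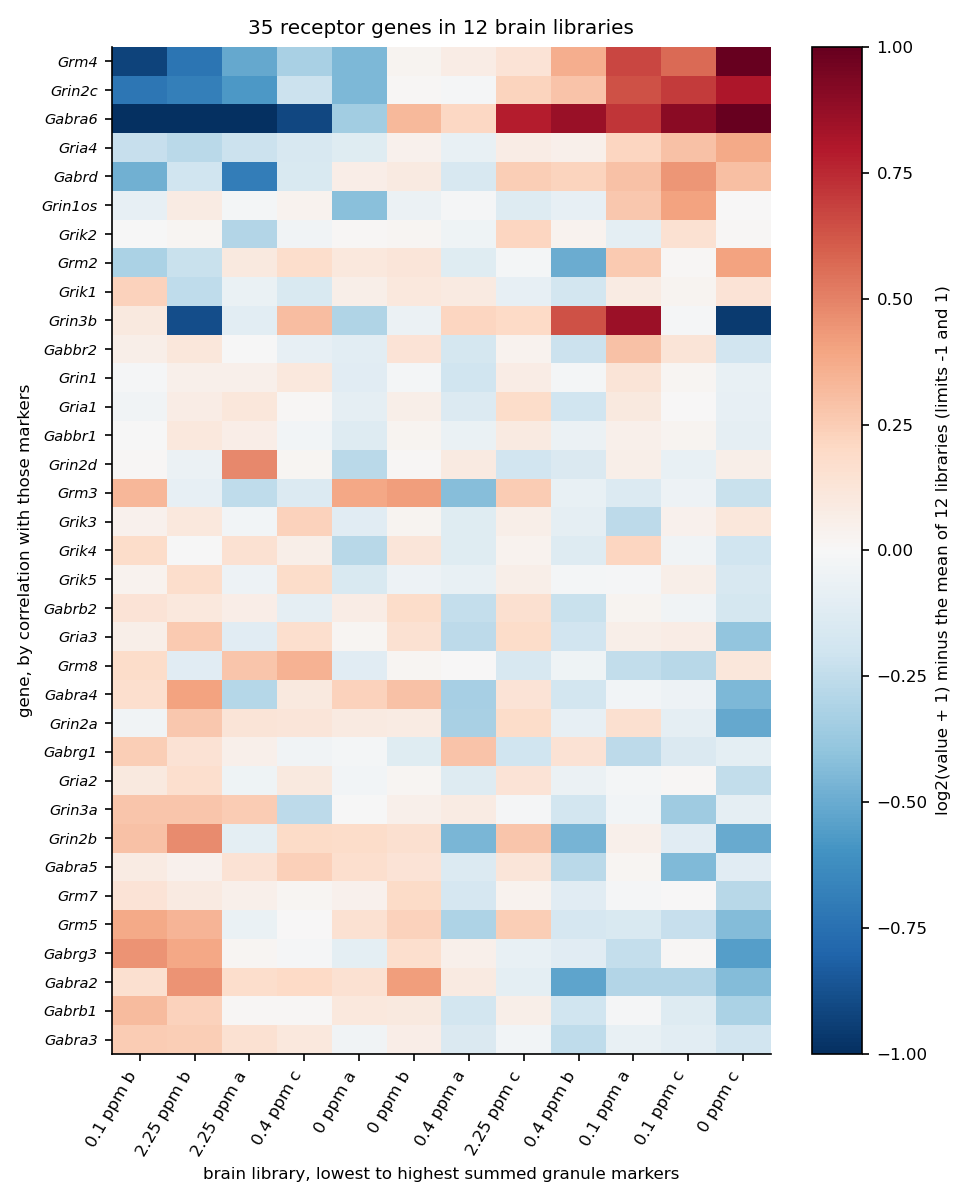
Deviation of log2(value + 1) from the mean of 12 libraries for 35 receptor genes, with libraries ordered by summed granule markers from left to right and genes by their correlation with that sum from top to bottom. Grm4, Grin2c and Gabra6 go from blue to red, genes at the bottom go the other way, and the diets are mixed along the order.

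Grin2c to Grin2b ran from 0.124 in 2.25 ppm b to 0.69 in 0 ppm c, a 5.56-fold range. The ratio of Grin2a to Grin2b, which rises as forebrain synapses mature, ran from 0.259 to 0.423 and overlapped among the 4 diets. Gria1 to Gria2, whose edited product makes AMPA receptors tight to calcium, ran from 0.53 to 0.655. Summed glutamate receptor reads stood at 1.23 to 1.37 times summed GABA receptor reads in every library. All of the ratios given here are ratios of normalized reads, not of reads per length. Per kb of exon the order of the sums was the other way. GABA-A held 36.8% and GABA-B 15.9% of the mean total over the classes, more than the glutamate classes together.

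Diet was tested with limma on log2(value + 1), with Benjamini-Hochberg adjustment of p-values across the 21127 genes tested. No receptor gene passed an adjusted p of 0.05 for any difference among the 4 diets, where 0.0189% of all genes passed by limma and 0.0189% by edgeR, which also called 0 members. At an unadjusted p under 0.05, limma and edgeR each took 6 members, 15.4% of them, against 9.46% of all genes by limma and 9.32% by edgeR. Among the members with the smallest p were Gabbr2 (adjusted p = 0.376), Gabrb2 (0.425) and Gria1 (0.469).

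Gria1, the AMPA subunit GluA1 known for activity-dependent insertion at synapses, stood at 4418, 4905 and 4444 normalized reads at 0 ppm and at 5018, 4576 and 4724 at 0.1 ppm. It stood at 4274, 4104 and 4731 at 0.4 ppm and at 5085, 4952 and 5331 at 2.25 ppm. The highest values were at 2.25 ppm, and those libraries overlapped with 0.1 ppm.

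Selenium deficiency is named in the series title, and the comparison of 0 ppm with the mean of 0.1, 0.4 and 2.25 ppm addresses a diet without added selenium. At 0 ppm 18 members were higher and 21 lower, with a median log2 difference of -0.02 and a median of 0.00 over all genes. This median rested on single libraries: it was -0.10 without 0 ppm b (25 lower), -0.04 without 0.1 ppm c, 0.02 without 0 ppm c (19 lower) and 0.01 without 0.1 ppm b or 0.4 ppm c (18 lower in both cases). By limma 0 members passed, where 0.0189% of all genes did, and by edgeR 0, where 0.00473% did. At an unadjusted p under 0.05 each tool took 1 member (2.56%), against 5.55% of all genes by limma and 5.48% by edgeR. No member had its 3 libraries at 0 ppm all above or all below the other 9 libraries, a pattern found in 0.369% of genes in the higher direction and 0.535% in the lower. The 95% interval of the difference lay within 0.5 log2 units either way for 31 of the 39 members and within 1 unit for 36.

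Grik5 (chr7:25009849-25072346 on mm10, minus strand), the high-affinity kainate subunit GluK5, was the member with the smallest p. It stood at 1588, 1699 and 1579 normalized reads at 0 ppm and at 1749, 1804 and 1838 at 0.1 ppm. At 0.4 ppm it stood at 1672, 1739 and 1999, and at 2.25 ppm at 1703, 1994 and 1833. The libraries at 0 ppm were lower than all others except 0.4 ppm a, which lay below 0 ppm b. Its log2 difference was -0.16 (SE 0.06, 95% interval -0.29 to -0.03, adjusted p = 0.878 by limma).

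Grm2, a receptor that limits glutamate release, stood at 429, 432 and 525 at 0 ppm, 476, 319 and 401 at 0.1 ppm, 367, 282 and 450 at 0.4 ppm and 427, 340 and 392 at 2.25 ppm. The ranges overlapped, and its log2 difference was 0.28 (SE 0.14, adjusted p = 0.896 by limma). Grin3b, a gene with few reads, stood at 6.84, 8.29 and 3.97 normalized reads at 0 ppm and differed by -0.58 (SE 0.29, adjusted p = 0.909 by limma). Grin1os differed by -0.21 (SE 0.11) and Gabbr1 by -0.08 (SE 0.05), both with an adjusted p of 0.912 by limma. Gabbr1 stood at 6944, 7743 and 7123 at 0 ppm, which overlap its values at 0.1 and 0.4 ppm.

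**Figure D4:**
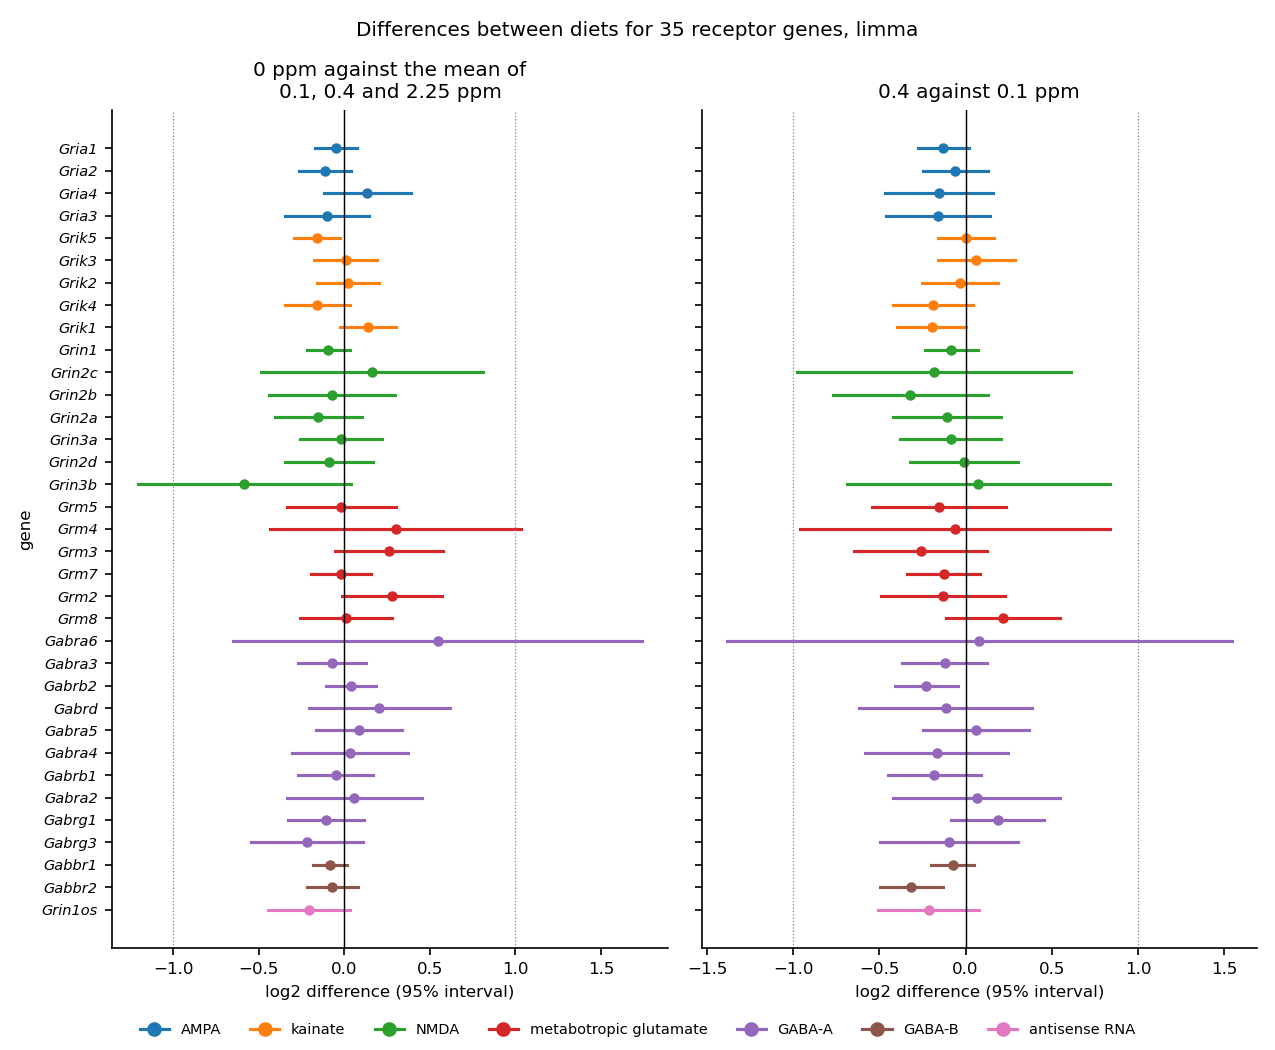
Log2 difference with its 95% interval from limma for 35 receptor genes, for 0 ppm against the mean of the other diets and for 0.4 against 0.1 ppm, coloured by receptor class. Most intervals lie within 0.5 of 0, the widest belong to Gabra6, Grm4, Grin2c and Grin3b, and 27 of the 35 points on the right lie below 0.

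Between 0 and 0.1 ppm, 27 members were lower and 12 higher at 0 ppm, with a median log2 difference of -0.03 (all genes -0.01). Without 0 ppm c 20 were lower and the median was 0.00, without 0 ppm b 29 were lower (median -0.09), and without 0.1 ppm c 25 were (median -0.07). By limma 0 members passed, where 0.0284% of all genes did, and by edgeR 0, where 0.0189% did. At an unadjusted p under 0.05 limma took 3 members (7.69%, against 6.95% of all genes) and edgeR 4, against 6.92% of all genes. Grin1, Grin3b and Grik5 were lower in all 3 libraries at 0 ppm than in any at 0.1 ppm, 3 of 39 where 6.51% of all genes did so, and no member was higher that way (5.09% of genes). Grin1 stood at 3142, 3342 and 3212 at 0 ppm and at 3703, 3367 and 3441 at 0.1 ppm. It stood at 2953, 3352 and 3651 at 0.4 ppm and at 3517, 3518 and 3576 at 2.25 ppm.

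The smallest p in that comparison belonged to Grin1os, at 109, 140 and 146 normalized reads at 0 ppm and 176, 137 and 193 at 0.1 ppm, which overlap. Its log2 difference was -0.35 (SE 0.14, adjusted p = 0.646 by limma). Its gene span overlaps that of Grin1 over 7706 bases on the other strand, introns included. Overlap of their exons was not measured. The strand setting of the counting is not given in the sources used here. Whether reads of Grin1 and Grin1os were mixed was therefore not tested. Gabbr2 differed by -0.21 (SE 0.08, adjusted p = 0.659 by limma). Grik4, the kainate subunit GluK4, stood at 238, 313 and 250 at 0 ppm and at 335, 327 and 281 at 0.1 ppm, a difference of -0.24 (SE 0.11, adjusted p = 0.691). Grin3b differed by -0.75 (SE 0.36, adjusted p = 0.723), with 16.5, 9.35 and 8.55 normalized reads at 0.1 ppm. Grik5 differed by -0.15 (SE 0.08, adjusted p = 0.742).

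Between 0.4 and 0.1 ppm, both GABA-B subunits and the GABA-A subunit Gabrb2 had values at 0.4 ppm below every library at 0.1 ppm, and none passed the test. Of the 39 members, 31 (79.5%) were lower at 0.4 ppm, against 52.6% of all genes, and the median log2 difference was -0.12 (all genes -0.01), or -0.08 without 0.4 ppm a. All 4 AMPA subunits, 9 of 13 GABA-A subunits and 6 of 7 metabotropic receptors were among those lower. By limma 0 members passed, where 0.00947% of all genes did, and by edgeR 0, where 0.0142% did. At an unadjusted p under 0.05 each tool took 4 (10.3%, against 8.08% of all genes by either tool). In all, 5 of 39 members were lower in all 3 libraries at 0.4 ppm than in any at 0.1 ppm, where 6.92% of all genes were, and no member was higher that way (6.48% of genes).

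Gabrb2, the β2 subunit, stood at 1550, 1564 and 1716 at 0.4 ppm and at 1864, 2006 and 1788 at 0.1 ppm. Its values at 0 ppm, 1926, 2080 and 1617, reached into those at 0.4 ppm. Its log2 difference from 0.1 ppm was -0.23 (SE 0.08, adjusted p = 0.514 by limma).

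Gabbr2 (chr4:46662305-46991873 on mm10, minus strand) stood at 2699, 2624 and 2875 at 0.4 ppm and at 3732, 3160 and 3328 at 0.1 ppm, which do not overlap. At 0 ppm it stood at 2833, 3337 and 2669 and at 2.25 ppm at 3042, 3296 and 3112. Its log2 difference from 0.1 ppm was -0.32 (SE 0.08, 95% interval -0.50 to -0.13, adjusted p = 0.331 by limma). Gabbr1 stood at 7255, 7286 and 7449 at 0.4 ppm and at 7871, 7561 and 7743 at 0.1 ppm. Grik1, the kainate subunit GluK1 found in interneurons, differed by -0.20 (SE 0.09, adjusted p = 0.625 by limma), with 245, 201 and 206 at 0.4 ppm and 242, 269 and 234 at 0.1 ppm, which overlap.

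**Figure D5:**
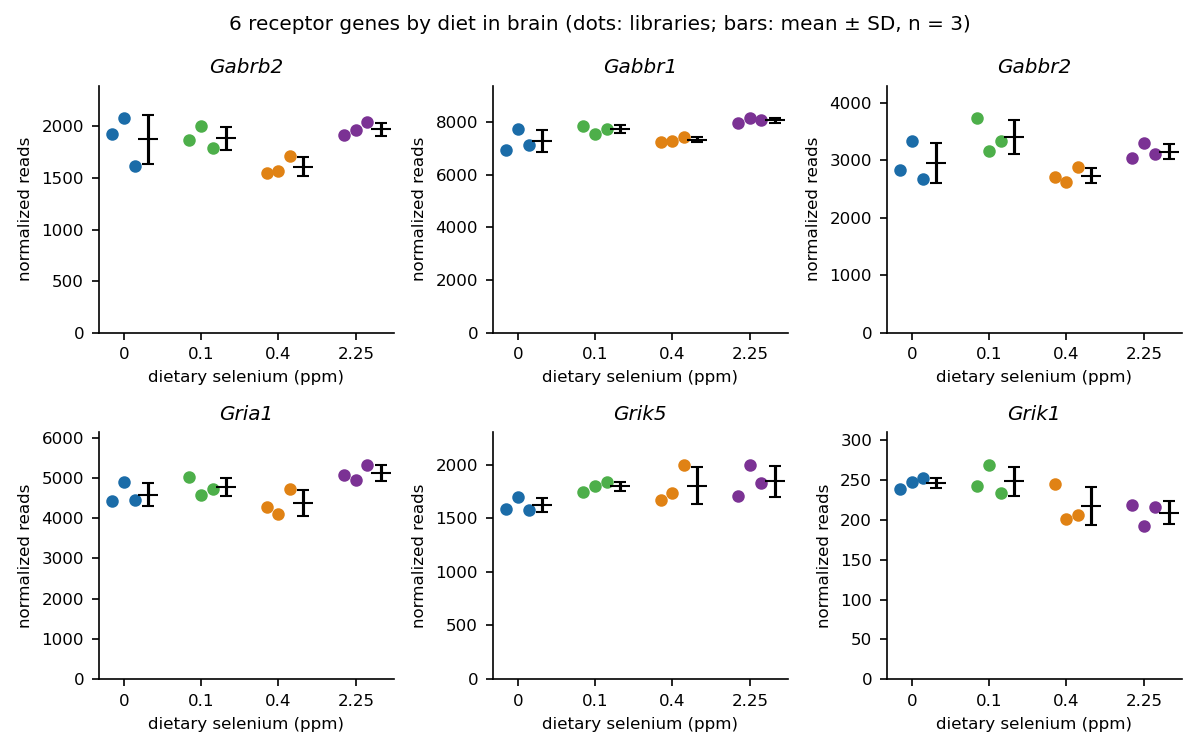
Normalized reads of 6 receptor genes by selenium diet (ppm), with a dot for each brain library and the mean ± SD (n = 3) beside them, on axes that start at 0. Gabrb2, Gabbr1 and Gabbr2 have all 3 dots at 0.4 ppm below those at 0.1 ppm, and no difference passed the adjusted test.

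Other markers differed between these diets. Summed hindbrain and spinal cord markers were 812 to 1150 normalized reads at 0.4 ppm and 276 to 379 at 0.1 ppm, and all 6 of that list were measured. Summed pituitary markers were 71.1 to 120 at 0.4 ppm and 150 to 52972 at 0.1 ppm. Excitatory markers of cortex and hippocampus were 10402 to 16043 at 0.4 ppm and 15206 to 17382 at 0.1 ppm, which overlap. The part of these in the receptor values was not tested. With the granule markers as a covariate, 31 members were lower at 0.4 ppm and the median was -0.13. Gabbr2 then differed by -0.32 (adjusted p = 0.215 by limma), within a range of 0.215 to 0.877 over its alternatives. Granule sums overlapped between these diets, at 5875 to 11738 and 4592 to 15310. They had an r of -0.15 with the cortical and hippocampal sum. This covariate is therefore no adjustment for the hindbrain, pituitary or cortical markers.

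Between 2.25 and 0.1 ppm, the comparison with the most brain genes past the test among those run, 24 members were higher and 15 lower at 2.25 ppm, with a median log2 difference of 0.04 (all genes 0.00). The direction turned without 2.25 ppm b (20 lower, median -0.02) and with the granule covariate (21 lower, median -0.02), and the median was 0.01 without 0.1 ppm a or c and 0.06 without 0.1 ppm b. By limma 0 members passed, where 0.435% of all genes did, and by edgeR 0, where 0.379% did. At an unadjusted p under 0.05 each tool took 1 (2.56%, against 13% of all genes by limma and 12.9% by edgeR). That member was Grik1, at 218, 193 and 216 at 2.25 ppm against 242, 269 and 234 at 0.1 ppm, a log2 difference of -0.25 (SE 0.09, adjusted p = 0.269 by limma). Its libraries did not overlap, 1 of 39 members in the lower direction where 9.35% of genes did so. Gabbr1, at 7967, 8151 and 8088 at 2.25 ppm, was the 1 member higher without overlap, where 9.13% of genes were.

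The next 4 by p at 2.25 ppm all overlapped with 0.1 ppm. Grin3b differed by -0.58 (SE 0.36, adjusted p = 0.519 by limma), with 7.95, 4.23 and 10.1 normalized reads at 2.25 ppm. Grin1os differed by -0.22 (SE 0.14) at 144, 154 and 133, and Gria4 by -0.23 (SE 0.15) at 1789, 1722 and 2188 against 2412, 1772 and 2550 at 0.1 ppm, both with an adjusted p of 0.53 by limma. Grin3a, a subunit known for limiting synapse maturation, differed by 0.21 (SE 0.14, adjusted p = 0.543), at 675, 688 and 563 against 555, 686 and 442. Over the alternatives the difference ran from -0.39 to -0.07 for Gria4, with -0.07 under the granule covariate, and from 0.05 to 0.37 for Grin3a. Summed endothelial markers were 2347 to 2712 at 2.25 ppm and 1917 to 2169 at 0.1 ppm. Of these markers, Cldn5, Flt1 and Slco1a4 were higher without overlap. Pecam1 overlapped, at 327, 243 and 227 against 253, 251 and 254. Summed pituitary markers were 44.1 to 79.0 at 2.25 ppm and 150 to 52972 at 0.1 ppm. The part of these markers in the receptor values was not tested.

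Some GABA-A genes lie next to each other in the genome. On mm10, Gabrg1, Gabra2, Gabra4 and Gabrb1 lie within chr5:70751047-72149037, where the pairs had r from -0.09 to 0.84.

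The gene spans of Gabra4 and Gabrb1 overlap on opposite strands over 196 bases, and there too overlap of exons was not measured. The 38 protein-coding members are long genes, with a median span of 216 kb against 23.7 kb for 16671 coding genes of the table, and 24 of the 38 exceed 100 kb.

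Genes that serve the receptors were tested in the same fits, in which 0.00947% to 0.435% of all genes passed by limma in a comparison and 5.55% to 13% had an unadjusted p under 0.05. For a list of 42 auxiliary and scaffold genes, such as Dlg4, Shank3 and the Cacng subunits that carry AMPA receptors, 43 entries were tested. Of these, 0 passed in any comparison by limma, with 0 to 1 at an unadjusted p under 0.05. Against the supplemented diets at 0 ppm this list ran from Shisa7 at -0.15 to Homer1 at 0.31. Of 22 genes of receptor editing and trafficking, 0 passed by limma, with 0 to 2 at an unadjusted p under 0.05, and they ran from Plcl1 at -0.28 to Adarb2 at 0.10. Of 11 related subunits, such as the glycine receptors, 0 passed by limma, with 0 to 3 at an unadjusted p under 0.05, and they ran from Gabrr2 at -0.91 to Gabrr1 at 0.49.

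Of 21 genes of transmitter synthesis, release and uptake, 1 passed, at 2.25 against 0.1 ppm, where 0.435% of all genes did. Slc38a2, a transporter of glutamine and other neutral amino acids, rose at 2.25 ppm, with 3329, 2937 and 2758 normalized reads against 2025, 2154 and 2296 at 0.1 ppm. It stood at 2923, 2840 and 2783 at 0.4 ppm and at 2157, 2308 and 2414 at 0 ppm. At 0.4 against 0.1 ppm it differed by 0.40 log2 units (adjusted p = 0.162 by limma) and did not pass. Its log2 difference between 2.25 and 0.1 ppm was 0.48 (SE 0.07, adjusted p = 0.0261 by limma), and 0.47 by edgeR (adjusted p = 0.0294). Leaving out 0.1 ppm a, 0.1 ppm b, 0.4 ppm b or any library at 2.25 ppm ended the call, with adjusted p from 0.0506 to 0.105. It also ended without both pituitary-rich libraries (adjusted p = 0.0839), with the 6 compared libraries only (0.0872) and with no mean-variance trend (0.0892), and over all alternatives the adjusted p ran from 0.0142 to 0.105. The other 20 genes of that list did not pass, and against the supplemented diets at 0 ppm the list ran from Slc38a2 at -0.21 to Slc1a6 at 0.11.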

How the data were processed

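RNA from whole brain and liver was extracted with TRIzol and made into libraries with a stranded total RNA kit, per the labels' protocols. Build mm10 and, among other tools, limma 3.34.5, RSEM 1.3.0, STAR 2.5.2b and Trimmomatic 0.33 are named in the submitters' processing notes. The deposited table holds the authors' normalized signal for 21894 genes in 24 libraries. Multiplied by 1 factor per library, 525456 of 525456 values (100%) lay within 0.01 of whole reads, so the scaling affects all genes of a library alike.

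In R 4.3.3, log2(value + 1) entered a single limma 3.58.1 fit of the 12 brain libraries, with variances following the mean, for genes that reached 1 in 3 or more of them. Fold changes on this scale understate changes of low genes. Alternatives were no filter or a filter at 4, a pseudocount of 0.1 or 8, moderation that was robust or without the mean-variance trend, quantile normalization, a threshold of 0.1, edgeR 4.0.16 with TMM on recovered reads, the 6 compared libraries only and leaving out each library. A covariate of granule markers and leaving out the 2 libraries richest in pituitary markers were chosen after seeing the data. The procedure was also run on simulated counts, with the same dispersion for all genes and no variation shared between genes. Such data lack the shared variation of these libraries, so they do not give the error rate here.

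The members and lists were chosen with earlier results of these data known. Named genes were the 5 members with the smallest p in each comparison, the highest per length in each class, and list genes past the threshold with the lowest and highest difference. Some members are not reported here by name. Members without overlap and those following marker lists were chosen after their values were seen. Of the gene identifiers, 21821 were in GENCODE M21, 17753 with the same version.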

Additional observations from a re-analysis of the deposited data

Results flagged for a closer look

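Some receptor genes gave a signal in liver, which the comparisons of diets in brain do not use and which is why they are listed here. In all 12 liver libraries, 7 members were at or above 3 reads, which is 3.12 to 5.32 normalized reads there. Mean levels were 280.6 normalized reads for Gabbr2, 227 for Grik5, 77.7 for Gabbr1, 45.5 for Gabra3, 30.9 for Grm8 and 28.9 for Gria3. Gabbr2 in liver stood at 299 to 345 at 0 ppm, 320 to 360 at 0.1 ppm, 219 to 286 at 0.4 ppm and 183 to 224 at 2.25 ppm. No test between diets was run in liver, and how many of all genes order their liver libraries in this way was not counted. Grik5 stood at 168 to 327 over the 4 diets, which overlapped. Another 7 members, Gabra6, Gabrg1, Gabrg3, Grin1os, Grik1, Grm3 and Grm7, were listed at 0 in all 12 liver libraries, and 15 more were under 3 reads in each.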

How the results depend on the processing

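Receptor genes past the threshold numbered 0 under every alternative in every comparison. Their lowest adjusted p was 0.158 for any difference (without 0 ppm c), 0.606 for 0 ppm against the other diets, 0.412 for 0 against 0.1 ppm and 0.148 for 2.25 against 0.1 ppm (without the pituitary-rich libraries). All 496 alternative values of 21 named receptor gene results stayed on their side of the threshold, and those with a direction kept it. Part of these values could not change direction. Robust moderation, no mean-variance trend, the threshold of 0.1 and leaving out a library of a diet not compared do not alter a log2 difference. The count is thus no measure of stability. Slc38a2, which is no receptor gene, lost its call under the alternatives named beside it. At 0.4 ppm, 30 to 34 members were lower, with medians of -0.15 to -0.08. The medians of the other comparisons were less stable, from -0.10 to 0.02 for 0 ppm against the other diets (0.02 with the granule covariate), from -0.09 to 0.00 for 0 against 0.1 ppm and from -0.02 to 0.06 for 2.25 against 0.1 ppm. A minimum mean of 1 in the rule gives 39 members and of 20 gives 38.

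Counts over all genes moved with the settings, and the cause was not tested. For any difference (4 genes) they were 30 with robust moderation, 48 at a threshold of 0.1, 44 with the granule covariate, 1 without the pituitary-rich libraries and 1 to 13 without a library. For 0 ppm against the other diets (4) they were 2 with pseudocount 8, 2 with quantile normalization, 8 with robust moderation, 1 with no trend, 14 at 0.1, 1 with edgeR, 8 with the covariate, 1 without the pituitary-rich libraries and 1 to 10 without a library. For 0 against 0.1 ppm (6) they were 1 with pseudocount 8, 1 with no trend, 10 at 0.1, 0 with the 6 libraries only, 0 without the pituitary-rich libraries and 0 to 6 without a library. For 0.4 against 0.1 ppm (2) they were 4 with no trend and 0 to 4 without a library. For 2.25 against 0.1 ppm (92) they were 12 with no trend, 273 at 0.1, 0 with the 6 libraries only, 169 with the covariate, 3 without the pituitary-rich libraries and 0 to 149 without a library, with 0 without 0.1 ppm b or 2.25 ppm c.

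No paired analysis was possible because the columns of the table carry no replicate numbers. With 3 libraries a diet, the median 95% interval of a receptor gene reached 0.29 log2 units either way between 2 diets at the level of a single gene, before adjustment over all genes.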
